A study of Mus musculus with 6 samples.

Results

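The genes described here encode the mouse receptors for the Fc part of immunoglobulin G. They are the 4 Fc gamma receptors Fcgr1, Fcgr2b, Fcgr3 and Fcgr4, the signalling chain Fcer1g that the activating receptors share, and the neonatal Fc receptor Fcgrt. They were taken by gene symbol from the counts of 57010 Ensembl genes, all 6 were found, and all 6 passed the filter on low counts. RNA came from CD45-positive, CD90.2-negative cells purified from hearts, and so mainly from leukocytes other than T cells. The mice carried a transgene for heart-restricted ovalbumin (genotype Ova DTG, whose promoter the sources do not name), and in both groups they had received naïve ovalbumin-specific OTI CD8 T cells. The 3 libraries labelled ICI came from mice given checkpoint antibodies, 200 µg against CTLA-4 and 200 µg against PD-1, and the 3 labelled isotype from mice given isotype control antibody. The dose of the isotype antibody is not stated. The libraries are numbered as biological replicates 1 to 3 in each group and carry the same batch label. The labels state neither age nor pooling of animals, so p-values measure the spread between these libraries.

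Activating Fc gamma receptors bind immune complexes and pass the signal through the tyrosine motif (ITAM) of Fcer1g to the kinase Syk, which drives phagocytosis and cytokine release by macrophages. Fcgr2b is the inhibitory member: its own tyrosine motif (ITIM) recruits the lipid phosphatase SHIP, encoded by Inpp5d. Fcgrt belongs to a different family, resembles a class I histocompatibility heavy chain, pairs with B2m, and returns swallowed immunoglobulin G from endosomes to the cell surface. The antibodies against CTLA-4 and PD-1 are themselves immunoglobulins G and so possible ligands of these receptors.

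The libraries held 21528274 to 30736316 counts. No value in the table identifies a library's treatment apart from its label, so the groups are named by their labels. The T cell gene Thy1, which encodes the excluded CD90 antigen, had 0 to 2 counts per library, whereas Ptprc, which encodes CD45, was at 1214 ± 113 CPM in ICI libraries and 1087 ± 50.5 CPM in isotype libraries (SD, n = 3 each; edgeR adjusted p = 0.170). CPM are counts scaled to 1000000 per library on library sizes adjusted by the TMM method of edgeR. The 8 T cell markers, Thy1 included, summed to 11.1 to 20.5 CPM in ICI libraries and 2.07 to 4.31 CPM in isotype libraries (of 5 tested, 2 rose and 1 fell). Replicate 3 of each group carried Xist counts (2786 in the ICI library, 1844 in the isotype library) with 6 and 130 counts of 4 Y-linked genes, while replicates 1 and 2 of both groups carried 3620 to 5821 Y-linked counts. Results were therefore also computed without replicate 3 of both groups. Macrophage markers were abundant in both groups (8 markers summing to 11550 to 13350 CPM in ICI libraries and 9917 to 11150 CPM in isotype libraries). Resident macrophage markers summed to 4321 to 4642 CPM in ICI libraries, against 79.5 to 129 CPM in isotype libraries (8 of 8 rose). Monocyte markers summed to 805 to 1107 CPM in ICI libraries, against 4432 to 9647 CPM in isotype libraries (6 of 8 fell and 1 rose). B cell markers summed to 237 to 748 CPM in ICI libraries and 13.5 to 25.0 CPM in isotype libraries (8 of 8 rose). Markers that rose or fell are those with an edgeR adjusted p under 0.05, as 34.7% and 33.7% of all genes tested did. The part of these cell types in the receptor differences was not tested. In such bulk libraries, fewer cells of a type and less RNA per cell cannot be told apart.

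Activating receptor transcripts and their shared chain were lower in ICI libraries, apart from Fcgr3, and Fcgrt was much higher. Of the 6 genes, 3 fell (Fcgr4 7.34-fold, Fcgr1 2.92-fold and Fcer1g 2.05-fold) and 2 rose (Fcgrt 7.53-fold and Fcgr2b 1.20-fold), while Fcgr3, at 1183 ± 85.5 CPM in ICI libraries and 1228 ± 36.5 CPM in isotype libraries (SD, n = 3 each), was not called. A gene was called where edgeR's quasi-likelihood test gave it an adjusted p under 0.05 (Benjamini-Hochberg, over 14575 genes). Among all genes tested 68.4% were called, 34.7% higher and 33.7% lower in ICI libraries, so 5 calls among 6 genes are near the background, and the sizes and directions of the single genes are what the data add. For 5 of the 6 genes the ranges of ICI and isotype libraries were apart, as they were for 73.8% of all genes tested. Against a change of at least 1.5-fold, which 37.5% of all genes passed, 4 of the 6 passed and Fcgr2b did not (adjusted p = 1).

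**Figure D1:**
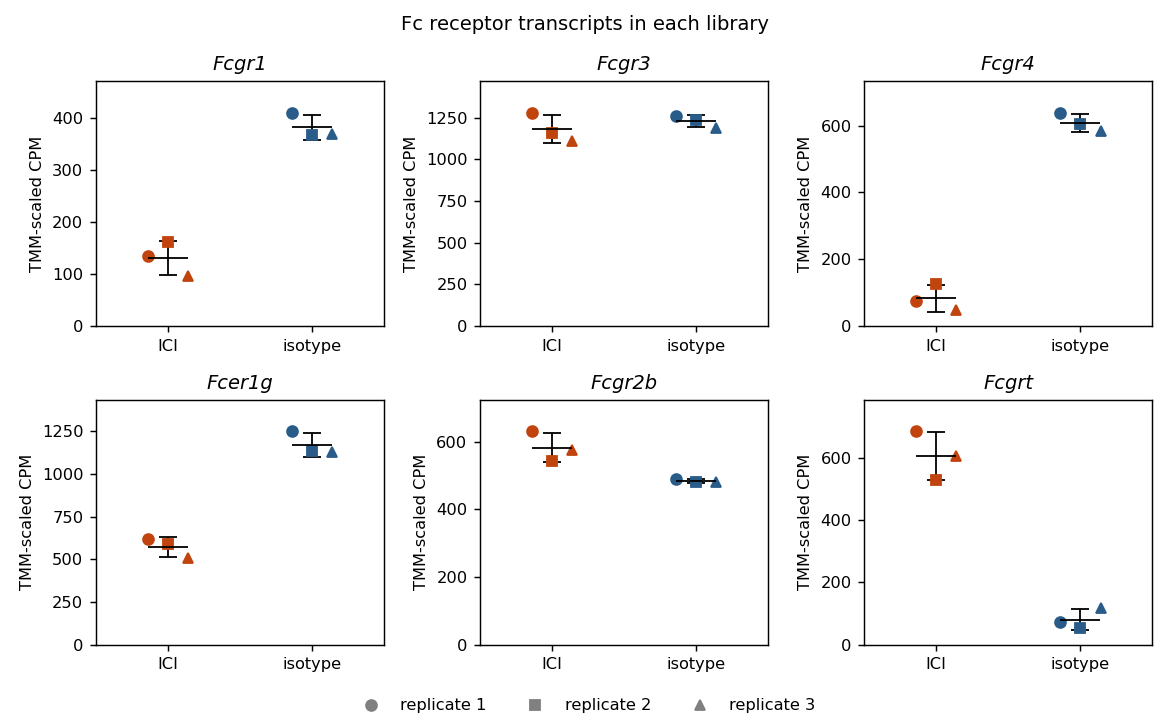
Level of each of the 6 genes in TMM-scaled CPM (linear axes from 0). Each point is a library, the symbol gives its replicate number, and the bar with whiskers is the mean ± SD of 3 libraries. Fcgr1, Fcgr4 and Fcer1g are lower in all 3 ICI libraries than in any isotype library, Fcgr2b and Fcgrt are higher, and the groups overlap for Fcgr3.

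Fcgr4 (ENSMUSG00000059089), an activating receptor of monocytes, macrophages and neutrophils that binds the mouse subclasses IgG2a, IgG2c and IgG2b, had the largest fall of the 6 genes. It was at 75.1, 126 and 47.3 CPM in ICI replicates 1, 2 and 3, against 638, 604 and 583 CPM in isotype replicates 1, 2 and 3. The groups were far apart, with a close spread among isotype libraries (coefficient of variation 4.57%) and a wide one among ICI libraries (48.2%), where replicate 2 was highest and replicate 3 lowest. The log2 fold change was -2.88 (SE 0.38, edgeR adjusted p = 0.00110), and 7.99% of all genes changed more in either direction.

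Fcgr1 (ENSMUSG00000015947), the high-affinity receptor that also binds single IgG molecules, was at 134, 162 and 95.9 CPM in ICI replicates 1, 2 and 3, against 409, 366 and 369 CPM in isotype replicates 1, 2 and 3. Its ICI libraries kept the order of Fcgr4, replicate 2 above 1 above 3, and none reached the isotype range. The log2 fold change was -1.55 (SE 0.17, edgeR adjusted p = 9.27e-05).

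Fcer1g (ENSMUSG00000058715), the common gamma chain that the activating receptors need for signalling, was at 621, 588 and 506 CPM in ICI libraries and at 1250, 1135 and 1127 CPM in isotype libraries. The lowest isotype library was thus well above the highest ICI library. The log2 fold change was -1.03 (SE 0.10, edgeR adjusted p = 1.41e-05). Fcgr1 fell by more than its partner chain: the count ratio of Fcgr1 to Fcer1g was 0.216, 0.276 and 0.190 in ICI libraries, against 0.327, 0.323 and 0.328 in isotype libraries, with no overlap (mean log2 ratio -2.16 ± 0.27 in ICI and -1.62 ± 0.01 in isotype libraries, SD, n = 3 each; exact two-sided permutation p = 0.1).

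Fcgr3 (ENSMUSG00000059498), the low-affinity activating receptor found on most myeloid cells and on natural killer cells, was at 1278, 1160 and 1112 CPM in ICI libraries and at 1259, 1237 and 1188 CPM in isotype libraries. The groups overlapped, and the spread among ICI libraries was larger than the difference of the means. The log2 fold change was -0.05 (95% interval -0.26 to 0.15, edgeR adjusted p = 0.622); it was 0.15 with library totals alone, 0.13 with upper-quartile factors and 0.03 with a strict filter (50 counts in at least 3 libraries), and it was called under none of the 19 alternatives. Over all genes, the median log2 fold change was 0.23 with library totals and 0.03 with TMM, so a change of this size has no settled direction. On library totals alone Fcgr3 was 1267 ± 65.5 CPM in ICI libraries and 1143 ± 16.2 CPM in isotype libraries, without overlap.

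Fcgr2b (ENSMUSG00000026656), the inhibitory receptor of macrophages and B cells, was at 630, 543 and 574 CPM in ICI libraries, against 490, 482 and 479 CPM in isotype libraries. Every ICI library was above every isotype library, but by little: the log2 fold change was 0.27 (SE 0.09, edgeR adjusted p = 0.0202). The call was lost when ICI replicate 1 or isotype replicate 1, 2 or 3 was left out (adjusted p = 0.0749, 0.0769, 0.0597 and 0.0642), without replicate 3 of both groups (0.0715), and when libraries were scaled to Ptprc (log2 fold change 0.12, adjusted p = 0.457) or to the 8 macrophage markers (0.05, adjusted p = 0.739). Fcgr2b is also the Fc gamma receptor of B cells, and the B cell marker sum was 237, 296 and 748 CPM in ICI replicates 1, 2 and 3; replicate 3, with the highest sum, had less Fcgr2b than replicate 1. The part of B cell RNA in the Fcgr2b difference was not tested.

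Fcgrt (ENSMUSG00000003420), the recycling receptor, had the largest rise of the 6 genes, at 686, 528 and 606 CPM in ICI libraries against 72.7, 51.7 and 117 CPM in isotype replicates 1, 2 and 3. The lowest ICI library was several times above the highest isotype library, which was replicate 3. The log2 fold change was 2.91 (SE 0.32, edgeR adjusted p = 0.000403), and 7.83% of all genes changed more. B2m, the light chain Fcgrt pairs with, moved the other way, at 2793 ± 738 CPM in ICI libraries and 5434 ± 625 CPM in isotype libraries (SD, n = 3 each; log2 fold change -0.96, edgeR adjusted p = 0.00142). The count ratio of Fcgrt to B2m was 0.286, 0.145 and 0.260 in ICI libraries, against 0.0123, 0.0109 and 0.0207 in isotype libraries (15.7-fold between the geometric means; exact two-sided permutation p = 0.1).

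**Figure D2:**
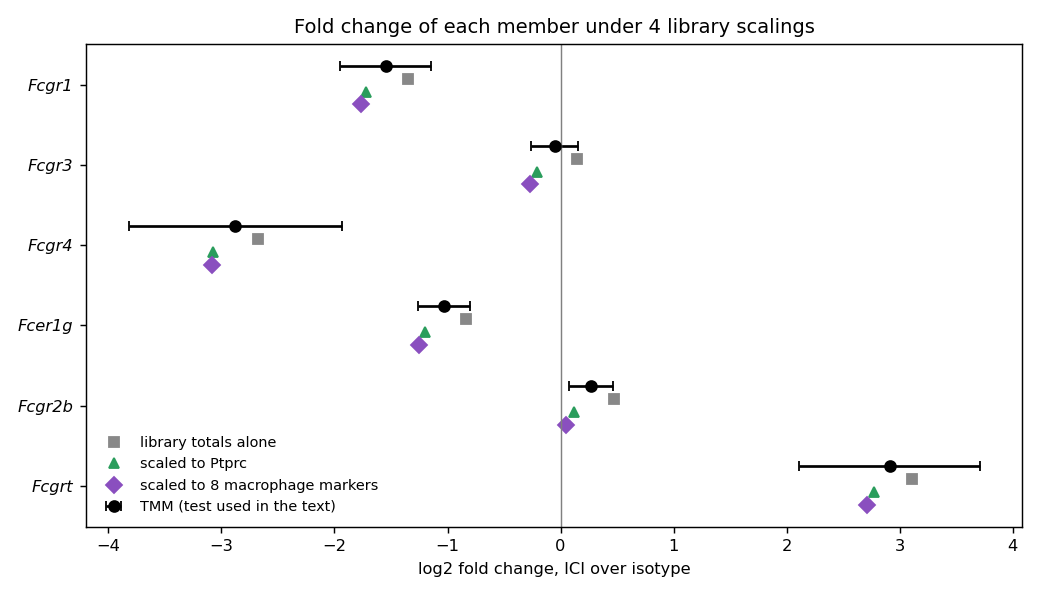
Log2 fold change (ICI over isotype) of the 6 genes under 4 scalings of the libraries. The black points with 95% intervals are the TMM fit, and the grey squares, green triangles and violet diamonds are fits on library totals, on Ptprc and on 8 macrophage markers. Fcgr1, Fcgr4, Fcer1g and Fcgrt keep their direction, Fcgr2b comes down to 0.05, and Fcgr3 lies on either side of 0.

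Over all 19 alternatives the log2 fold changes ranged from -1.76 to -1.35 for Fcgr1, from -3.31 to -2.59 for Fcgr4, from -1.25 to -0.83 for Fcer1g and from 2.67 to 3.28 for Fcgrt, and all were called. The scalings to Ptprc and to the macrophage markers, chosen after the data were seen, shift all genes by nearly the same small amount (median log2 fold change -0.12 and -0.18 over all genes). Of the 8 macrophage markers 3 rose and 2 fell, beside 34.7% and 33.7% of all genes tested. The part of the amount of macrophage or leukocyte RNA in these differences was not tested.

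The balance of activating to inhibitory receptor transcripts differed between the groups. Ratios of 2 genes within a library do not depend on its scaling. The count ratio of Fcgr4 to Fcgr2b was 0.119, 0.232 and 0.0823 in ICI libraries, against 1.30, 1.26 and 1.22 in isotype libraries, a 9.55-fold difference of geometric means. That of Fcgr1 to Fcgr2b was 0.213, 0.298 and 0.167 in ICI libraries, against 0.835, 0.760 and 0.771 in isotype libraries. The ratio of Fcgr3 to Fcgr2b differed least, at 2.03, 2.14 and 1.94 in ICI libraries and 2.57, 2.57 and 2.48 in isotype libraries. Between the activating receptors, the ratio of Fcgr4 to Fcgr3 was 0.0588, 0.109 and 0.0425 in ICI libraries and 0.507, 0.489 and 0.491 in isotype libraries. None of the 6 ratios computed, those to Fcer1g and B2m included, overlapped between the groups. Each had an exact two-sided permutation p = 0.1, adjusted 0.1 over the 6, which is the smallest that 3 against 3 libraries allow.

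Per kilobase of the longest coding transcript, the order of the 6 genes differed between the groups. In ICI libraries Fcgr3 (878 ± 63.4 CPM per kb) and Fcer1g (837 ± 87.0) led and did not differ beyond their spread, followed by Fcgrt (343 ± 44.4) and Fcgr2b (164 ± 12.4), then Fcgr4 (65.9 ± 31.8) and Fcgr1 (50.5 ± 12.8), whose ranges overlapped. In isotype libraries the order was Fcer1g (1714 ± 101 CPM per kb), Fcgr3 (912 ± 27.0), Fcgr4 (484 ± 22.1), Fcgr1 (147 ± 9.28), Fcgr2b (137 ± 1.57) and Fcgrt (45.5 ± 18.9), with separate ranges for each pair of neighbours. Fcgr4 thus stood in the third place in isotype libraries and in the fifth in ICI libraries, while Fcgrt stood last in isotype libraries and in the third place in ICI libraries. Of the summed level of the 4 Fc gamma receptors, Fcgr3 made up 75.8% ± 2.35 in ICI libraries and 54.3% ± 0.5 in isotype libraries (SD, n = 3 each). Fcgr4 made up 5.63% ± 2.58 in ICI libraries and 28.8% ± 0.321 in isotype libraries. Fcgr1 made up 4.33% ± 0.919 in ICI libraries and 8.77% ± 0.330 in isotype libraries, and Fcgr2b 14.2% ± 1.11 in ICI libraries and 8.13% ± 0.191 in isotype libraries. The sum of the 3 activating receptors was 5.97, 6.68 and 5.56 times Fcgr2b in ICI libraries, against 11.6, 11.3 and 11 times in isotype libraries. With the union of all exons as the length, which is longer for Fcgr2b, the order of the genes was the same and these sums averaged 7.96 times Fcgr2b in ICI libraries and 16 times in isotype libraries.

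**Figure D3:**
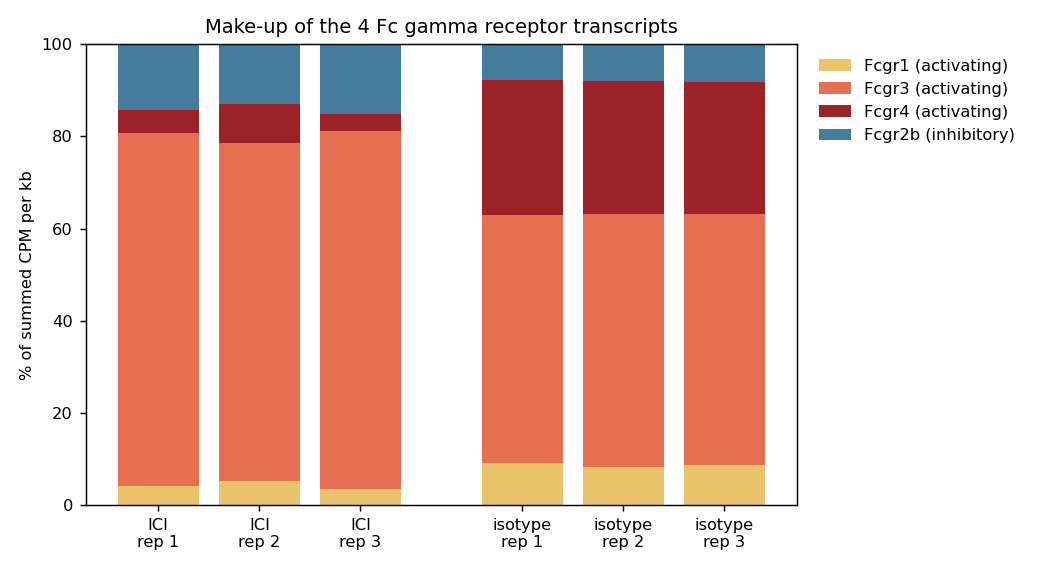
Share of each Fc gamma receptor in their summed level (CPM per kilobase of the longest coding transcript, in percent), 1 bar per library. Fcgr4 fills 3.54% to 8.52% of the ICI bars and 28.6% to 29.2% of the isotype bars, and Fcgr2b fills 13.0% to 15.2% of the ICI bars and 7.95% to 8.33% of the isotype bars.

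Within the groups, some orders of the libraries were shared between the receptors and other genes, and some were not. In ICI replicates 1, 2 and 3, Irf1, a transcription factor gene induced by interferons, was at 935, 1174 and 712 CPM, highest and lowest in the same libraries as Fcgr1 and Fcgr4. The monocyte genes Ly6c2 (99.8, 167 and 81.7 CPM) and Plac8 (81.9, 108 and 64.0 CPM) shared this too. In isotype replicates 1, 2 and 3, Irf1 was at 1365, 1431 and 1186 CPM and did not follow the order of Fcgr1 or Fcgr4, both highest in replicate 1. The 8 monocyte markers, which include Ly6c2 and Plac8, summed to 970, 1107 and 805 CPM in ICI replicates 1, 2 and 3. In isotype replicates 1, 2 and 3 they summed to 7450, 9647 and 4432 CPM, highest in replicate 2, and so did not follow Fcgr1 or Fcgr4 there. The resident macrophage markers summed to 96.5, 79.5 and 129 CPM in isotype replicates 1, 2 and 3, in the order of Fcgrt. In ICI libraries they summed to 4613, 4321 and 4642 CPM, highest in replicate 3, whereas Fcgrt was highest in replicate 1. These orders are over 3 libraries each and were looked at after the values were seen; the part of monocytes, interferon response or resident macrophages in the receptor levels was not tested.

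**Figure D4:**
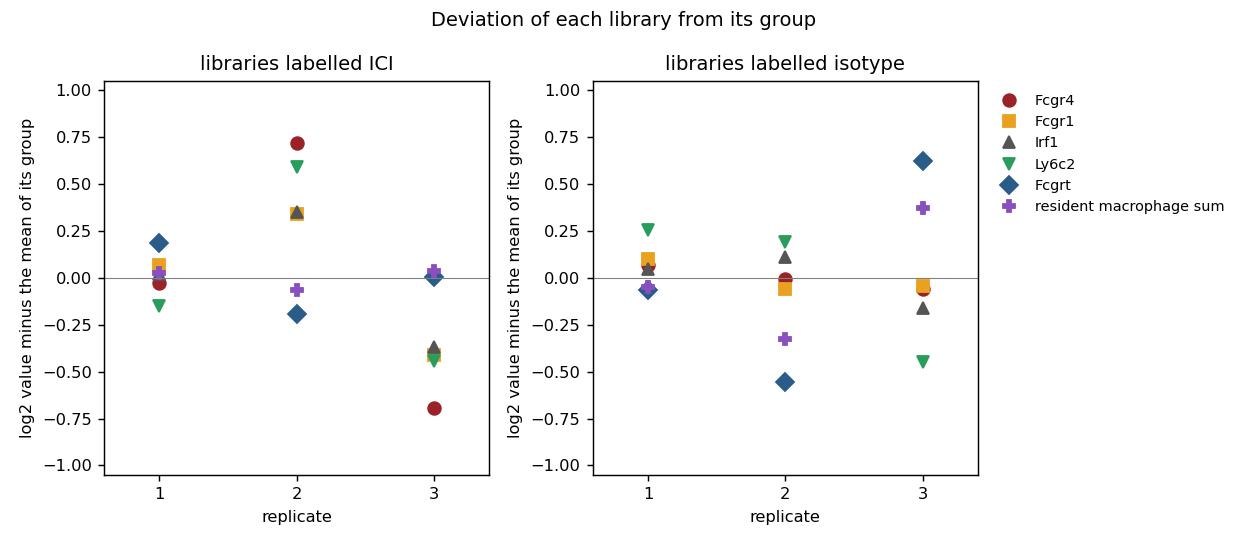
Log2 value of each library minus the mean of its group, for 3 of the 6 Fc receptor genes (Fcgr4, Fcgr1, Fcgrt), for Irf1 and Ly6c2, and for the sum of 8 resident macrophage markers; left the ICI and right the isotype libraries. Fcgr4, Fcgr1, Irf1 and Ly6c2 are all highest in ICI replicate 2 and lowest in ICI replicate 3, and Fcgrt and the resident macrophage sum are both highest in isotype replicate 3; in the other group these orders differ, with Irf1 highest in isotype replicate 2 and Fcgr4 and Fcgr1 in replicate 1, and the resident macrophage sum highest in ICI replicate 3 and Fcgrt in replicate 1.

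The promoters of the genes that fell most and of those that rose are shown to compare their motifs. They are the 250 bases before the RefSeq start in build GRCm38.p6, which is older than the authors' build, and 5′ to 3′ on the strand of the gene. Capitals mark matches, on either strand, to TTCNNNGAA (the interferon gamma-activated site, GAS), a pair of GAAA words with 2 bases of any kind between them (a core of the interferon-stimulated response element, ISRE) and GAGGAA (a core of sites for PU.1, encoded by Spi1), which did not overlap each other here. The motifs were chosen with the results known, and a match is not a shown binding site.
Fcgr1, chr3:96293970-96294219, minus strand: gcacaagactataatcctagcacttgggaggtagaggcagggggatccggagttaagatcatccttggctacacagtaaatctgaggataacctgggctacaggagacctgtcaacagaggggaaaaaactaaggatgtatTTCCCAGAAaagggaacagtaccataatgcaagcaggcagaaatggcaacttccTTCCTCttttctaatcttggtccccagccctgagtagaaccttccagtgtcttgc
Fcgr4, chr1:171018676-171018925, plus strand: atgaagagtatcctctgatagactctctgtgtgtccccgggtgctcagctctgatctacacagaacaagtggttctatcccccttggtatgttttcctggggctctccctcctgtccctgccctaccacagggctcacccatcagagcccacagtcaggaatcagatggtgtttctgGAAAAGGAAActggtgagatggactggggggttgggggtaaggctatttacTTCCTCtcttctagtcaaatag
Fcgr2b, chr1:170976072-170976321, minus strand: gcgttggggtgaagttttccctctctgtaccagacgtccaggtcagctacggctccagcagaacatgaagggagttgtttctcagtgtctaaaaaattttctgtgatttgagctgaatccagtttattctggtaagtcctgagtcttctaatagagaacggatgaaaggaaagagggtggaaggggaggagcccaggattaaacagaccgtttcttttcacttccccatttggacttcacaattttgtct
Fcgrt, chr7:45103823-45104072, minus strand: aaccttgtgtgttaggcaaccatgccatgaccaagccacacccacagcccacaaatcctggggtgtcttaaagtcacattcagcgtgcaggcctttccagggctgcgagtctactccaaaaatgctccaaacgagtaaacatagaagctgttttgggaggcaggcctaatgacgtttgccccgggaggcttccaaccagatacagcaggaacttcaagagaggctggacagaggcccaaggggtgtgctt
Fcgr1 held 1 match to TTCNNNGAA, which 7.02% of 32851 RefSeq promoter windows of this length hold, with its first base 109 bases before the start. Fcgr4 held 1 match to the ISRE core, which 2.98% of windows hold. Both held 1 match to GAGGAA, present in 23.3% of windows, as did each of the 2 listed start sites of Fcgr3. The windows of Fcgr2b, Fcer1g and Fcgrt held none of these letters.

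Fcgr2b and Fcgr3 share stretches of identical coding sequence, so their reads can be hard to assign. Of the 50-base words of the longest coding Fcgr3 transcript 12.8% also occurred in Fcgr2b transcripts, of 100-base words 3.53%, and of 150-base words 0%; the other members shared none of 50 bases. The longest run shared by both genes had 129 bases and lay in the coding part of both, at bases 402 to 530 of the Fcgr2b transcript and 313 to 441 of the Fcgr3 transcript in GENCODE M21.
Fcgr2b and Fcgr3, shared run: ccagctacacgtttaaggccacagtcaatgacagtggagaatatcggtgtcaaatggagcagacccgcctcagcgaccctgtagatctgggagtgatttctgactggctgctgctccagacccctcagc
The libraries carry no strand, and 155 of the exon bases of Fcgr2b lie over exons of a gene on the other strand, Gm38204. The ratio of Fcgr3 to Fcgr2b, in which both genes share sequence, is therefore less certain than the ratios that include Fcgr1 or Fcgr4. Those of Fcgr1 or Fcgr4 to Fcgr2b and of Fcgr4 to Fcgr3 also hold Fcgr2b or Fcgr3 and carry part of this uncertainty.

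Of 13 other Fc and Fc-like receptor genes 8 passed the filter, and 6 of these rose and 1 fell, where 34.7% of all genes tested rose and 33.7% fell. Their median log2 fold change was 4.02, against 0.03 over all genes tested. Fcrls (8, 1 and 21 counts in isotype replicates 1, 2 and 3) and Fcer2a (2, 3 and 5) passed the filter through their ICI libraries. So did Fcer1a (0, 0 and 3) and Fcmr (3, 2 and 19), named outside the rule. Fcrlb (15, 7 and 4 counts in ICI replicates 1, 2 and 3) passed through its isotype libraries. The directions of these genes and the list median are therefore in part set by the filter. Fcrls, a relative with a scavenger receptor domain that is known from mouse microglia, was at 539 ± 102 CPM in ICI libraries and 0.352 ± 0.341 CPM in isotype libraries (SD, n = 3 each; edgeR adjusted p = 4.43e-06); its fitted fold of 1416 was 2875 without isotype replicate 3. Fcer2a, the low-affinity IgE receptor CD23 of B cells, was at 30.5 ± 16.8 CPM in ICI libraries, against 0.126 ± 0.0491 CPM in isotype libraries (edgeR adjusted p = 9.74e-05). Fcrla, an intracellular B cell protein, was at 16.01 ± 8.82 CPM in ICI libraries, against 0.728 ± 0.117 CPM in isotype libraries (edgeR adjusted p = 0.000105). Both were highest in ICI replicate 3, at 49.9 CPM for Fcer2a and 26.1 CPM for Fcrla, the library with the highest B cell marker sum, which itself includes Fcrla; the part of B cells was not tested. Fcrlb, another intracellular relative, fell to 0.358 ± 0.239 CPM in ICI libraries, against 5.68 ± 1.57 CPM in isotype libraries (edgeR adjusted p = 2.02e-05), a 15.7-fold difference that was 24.8-fold without ICI replicate 1. Transcripts of the IgG ligands were scarce: of 7 IgG and pentraxin genes 4 were tested and 1 fell (33.7% over all genes), with a median log2 fold change of 0.78 that has the opposite sign. Ighg2c, the heavy chain of IgG2c, had 9, 6 and 11 counts in ICI libraries and 198, 85 and 36 counts in isotype libraries (11.2-fold lower, edgeR adjusted p = 0.00306; 6.90-fold without isotype replicate 1). Ighg2c passed the filter through its isotype libraries. Ighg1, Ighg2b and Ighg3 averaged 0.321 to 2.02 CPM in either group and were not called, and the pentraxin genes Crp, Apcs and Ptx3 did not pass the filter.

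**Figure D5:**
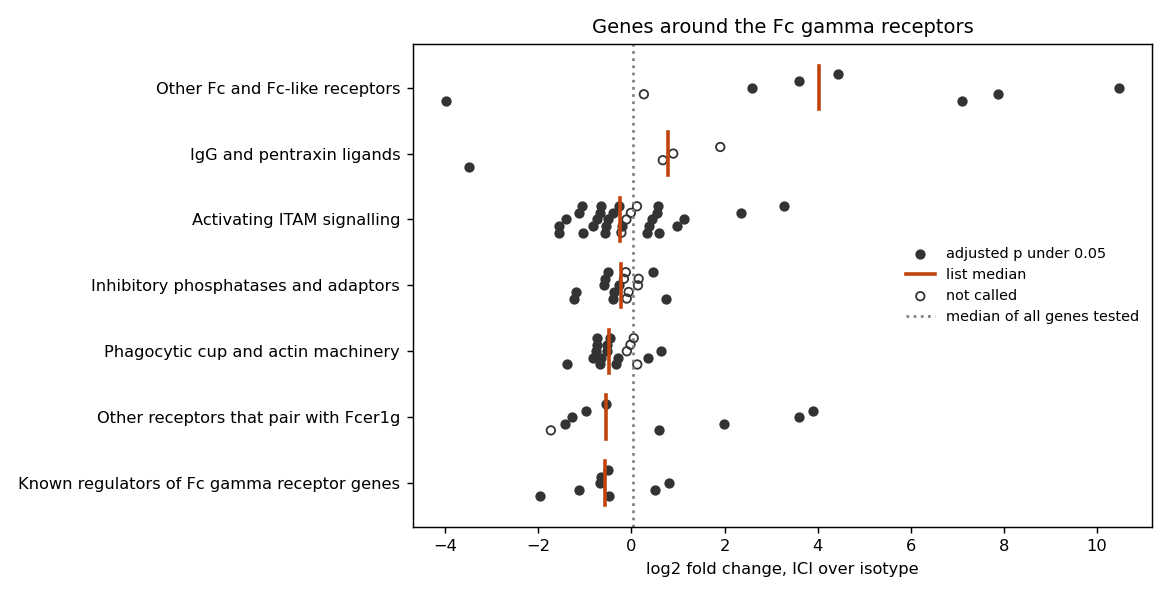
Log2 fold change (ICI over isotype) of each tested gene in 7 lists around the Fc gamma receptors; filled points passed an adjusted p under 0.05, open points did not, the orange bar is the list median and the dotted line the median of all genes tested (0.03). The signalling, inhibitory and phagocytic lists have medians of -0.25, -0.21 and -0.49, and the other Fc-like receptors spread from -3.97 to 10.47.

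Of 10 other receptors that share the Fcer1g chain 9 were tested, and 4 rose and 4 fell (median log2 fold change -0.55), beside 34.7% and 33.7% of all genes tested. Among those that rose is Fcer1a, also counted among the Fc-like receptors, with 0, 0 and 3 counts in isotype replicates 1, 2 and 3. It passed the filter through its ICI libraries, so its direction is in part set by the filter. Lilra5, an activating leukocyte immunoglobulin-like receptor, rose to 143 ± 16.6 CPM in ICI libraries, against 9.56 ± 0.970 CPM in isotype libraries (edgeR adjusted p = 1.36e-08), and Lilra6 rose 1.51-fold (edgeR adjusted p = 0.000448). Ncr1, the natural killer receptor NKp46, rose 3.96-fold (edgeR adjusted p = 4.94e-05) beside natural killer markers, of which it is one, that summed to 84.8 to 129 CPM in ICI libraries and 43.2 to 58.3 CPM in isotype libraries. Pira2, an activating paired immunoglobulin-like receptor, fell to 107 ± 15.2 CPM in ICI libraries, against 288 ± 4.6 CPM in isotype libraries (edgeR adjusted p = 2.19e-06). Lilra and Pira genes have near-identical relatives, so their counts are uncertain one by one.

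Downstream of the receptors, 10 of 30 kinases and adaptors of the ITAM pathway rose and 16 fell, where 34.7% of all genes tested rose and 33.7% fell. The count that rose is at the background, and the median log2 fold change was -0.25, against 0.03 over all genes. Lat, named outside the rule, is among those that rose and had 5, 6 and 6 counts in isotype replicates 1, 2 and 3. It passed the filter through its ICI libraries, so its direction is in part set by the filter. The adaptor Lat2 fell to 79.6 ± 2.98 CPM in ICI libraries, against 175 ± 1.59 CPM in isotype libraries (edgeR adjusted p = 9.11e-07). The phosphoinositide 3-kinase subunit Pik3cg and the exchange factor Vav2 rose 1.98-fold and 2.17-fold (edgeR adjusted p = 1.47e-05 and 2.09e-05). Named outside the rule for named genes, Syk, the kinase that binds the phosphorylated Fcer1g chain, rose 1.51-fold (515 ± 60.0 CPM in ICI and 340 ± 6.72 CPM in isotype libraries, edgeR adjusted p = 0.000419), and Tyrobp, another ITAM adaptor chain, fell 1.67-fold (570 ± 42.0 CPM in ICI and 954 ± 83.2 CPM in isotype libraries, edgeR adjusted p = 0.000103).

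Of the 16 inhibitory phosphatases and adaptors 2 rose and 8 fell (median log2 fold change -0.21), against 34.7% and 33.7% of all genes tested. The tyrosine phosphatase SHP-1, encoded by Ptpn6, fell to 446 ± 27.1 CPM in ICI libraries, against 1013 ± 62.6 CPM in isotype libraries (edgeR adjusted p = 2.84e-06). The receptor Sirpa fell 1.48-fold and the adaptor Dok1 fell 1.42-fold (edgeR adjusted p = 0.000442 and 0.000595). Inpp5d, the SHIP phosphatase that Fcgr2b recruits, named outside the rule, averaged 421 ± 14.2 CPM in ICI libraries and 507 ± 42.3 CPM in isotype libraries (log2 fold change -0.27, edgeR adjusted p = 0.0238), a call that was lost without ICI replicate 2 or 3 or isotype replicate 2 or 3 (adjusted p up to 0.0749). Of 18 genes of the phagocytic cup 2 rose and 12 fell (median -0.49), beside the same 34.7% and 33.7% over all genes. Phospholipase Pla2g4a fell 2.60-fold, the actin nucleator subunits Actr2 and Arpc3 fell 1.77-fold and 1.67-fold, and the adaptor Crk rose 1.55-fold (edgeR adjusted p = 1.13e-05, 3.20e-05, 4.70e-05 and 4.48e-05).

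Among 8 known regulators of these receptor genes 6 fell and 2 rose (median log2 fold change -0.58), where 33.7% of all genes tested fell and 34.7% rose. Irf8, a transcription factor of the monocyte lineage, fell to 339 ± 44.9 CPM in ICI libraries, against 742 ± 37.2 CPM in isotype libraries (edgeR adjusted p = 1.22e-05), and Cebpb fell 1.58-fold (edgeR adjusted p = 0.000109). The chains of the interferon gamma receptor went apart, Ifngr1 rising 1.75-fold and Ifngr2 falling 1.60-fold (edgeR adjusted p = 9.45e-05 and 3.04e-05). Named outside the rule, Spi1 fell 1.40-fold (edgeR adjusted p = 0.00144) and Irf1 fell 1.41-fold (edgeR adjusted p = 0.0284), a call that was lost without ICI replicate 1 or 3 or isotype replicate 1 or 2 (adjusted p up to 0.0863).

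The genes closest in pattern to each member were found among 4088 other genes averaging 50 CPM or more, by the root mean square difference of log2 CPM, centred per gene, over the 6 libraries. For Fcgr1 they were Psme1 (0.04), an activator subunit of the proteasome, Sirpb1b (0.06) and Slamf7 (0.07). For Fcgr4, only 2 genes lay within 0.2, Slco3a1 (0.11) and Slamf8 (0.15), followed by Lap3 (0.21), and for Fcgrt 6 did, led by Stard8 (0.15), the transcription factor Mef2c (0.16) and Acss1 (0.16). Fcer1g was closest to the granule fusion protein gene Vamp8 (0.03), Smarcb1 (0.04) and Sra1 (0.04), with 655 genes within 0.2. Fcgr2b had 988 genes within 0.2, led by Gga3 (0.03), Mgat1 (0.04) and Bicd2 (0.04), and Fcgr3 had 1368, led by Fkbp1a (0.03), Man2b2 (0.03) and Vps11 (0.03). With 2 groups this likeness is mostly a likeness in the size of the group difference.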

How the data were processed

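The values are unnormalized read counts of Ensembl genes in 6 libraries, deposited by the authors as 1 table; the libraries are non-directional SMART-seq, per the labels' protocols. Build GRCm39, Salmon 1.10.1 and STAR 2.7.10a appear in the submitters' processing notes without their roles, and neither the annotation release nor the strand setting is stated. Symbols came from a name table (91.3% of identifiers matched). Whole counts entered edgeR 4.0.16 (R 4.3.3, limma 3.58.1): TMM factors, filterByExpr at a minimum count of 10 (14575 genes, 99.9% of counts), estimateDisp and the robust quasi-likelihood F test, with Benjamini-Hochberg adjustment over 14575 genes. SE comes from the fold change and F. The fit was tested on simulated data in which far fewer genes changed than were called here, so that test cannot vouch for these calls. Transcript lengths are from GENCODE M21, a GRCm38 annotation. Alternatives were DESeq2 1.42.0, limma-voom, other scalings and filters, glmTreat, a replicate block and libraries left out. The members, gene lists and tests were chosen with earlier results of these data known. Named genes are the 6 members, Ptprc, B2m, up to 4 genes of each of 7 lists with the smallest p, and 3 genes per member of most similar pattern; others are named by position or said to be outside the rule. Some genes that the rule names are not reported here. Same-group libraries differed beyond sampling noise (chi-square per degree of freedom 13.8 to 37.4). PCR reads without molecular identifiers are not independent molecules.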

Additional observations from a re-analysis of the deposited data

How the results depend on the processing

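Fcgr1, Fcgr4, Fcer1g and Fcgrt kept direction and call under all 19 alternatives run, and the 6 ratios of 2 genes kept their direction under every alternative run on them. Fcgr2b was called in 11 of 19. Its log2 fold change was 0.27 and not called without replicate 3 of both groups, 0.116 and 0.0491 when scaled to Ptprc and to macrophage markers, and 0.27 against a 1.5-fold change, settings in which 1 member was called higher. With 1 library left out it ranged from 0.21 to 0.32, and 1 to 2 members were called higher. Fcgr3 was positive, and not called, with upper-quartile factors (0.13), library totals alone (0.15) and the strict filter (0.0331). Against a 1.5-fold change 3079 genes were higher and 2384 lower, and calls dropped to 11 of the ITAM list, 3 of the inhibitory, 3 of the phagocytic, 5 of the Fcer1g-pairing and 3 of the regulator list. Of the IgG and pentraxin genes 2 were called with DESeq2, limma-voom, library totals alone and no filter, 0 with the strict filter, and 1 to 2 with 1 library left out. The causes were not tested. The split of all calls, 5056 higher and 4913 lower, was 6108 and 3808 with upper-quartile factors, 6212 and 3700 with library totals, 3993 and 5430 when scaled to Ptprc and 3803 and 5763 when scaled to macrophage markers, which put the median log2 fold change at 0.21, 0.23, -0.12 and -0.18. With exon unions as lengths the activating sum averaged 7.96 times Fcgr2b in ICI libraries and 16 times in isotype libraries, as the union lengthens Fcgr2b most. A replicate block gave 4962 higher and 4846 lower genes and changed no call of a member (Fcgr2b adjusted p = 0.0205). Deviations of same-numbered libraries correlated at 0.03, 0.06 and 0.13 across genes, and not every library correlated best with its own number, so the numbers were not taken to pair libraries. Groups of 3 libraries limit the exact tests to p = 0.1. Depth did not limit the 6 members, the lowest value being 1123 counts.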

Other observations

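Fcgr2b, Fcgr4, Fcgr3 and Fcer1g lie near each other on mouse chromosome 1, in the stretch from Fcrlb to Fcer1g. In the order of the RefSeq annotation, this stretch holds 14 protein-coding genes, of which 10 were tested, 3 rose and 5 fell in ICI libraries, beside 34.7% and 33.7% of all genes tested. From one end, Fcrlb fell, Fcrla rose, Fcgr2b rose slightly, Fcgr4 fell 7.34-fold and its neighbour Fcgr3 was not called. Next to Fcgr3, Cfap126 was near the detection limit (1.03 ± 0.208 CPM in ICI libraries and 1.17 ± 0.266 CPM in isotype libraries, SD, n = 3 each) and not called. Sdhc, a succinate dehydrogenase subunit, fell to 78.0 ± 1.66 CPM in ICI libraries, against 155 ± 12.1 CPM in isotype libraries (edgeR adjusted p = 4.13e-06). Tomm40l, of the mitochondrial import channel family, fell 1.87-fold (edgeR adjusted p = 0.000108), close to the 2.05-fold fall of Fcer1g at the other end, while Pcp4l1 rose 4.65-fold (1.35 ± 0.278 CPM in ICI libraries and 0.278 ± 0.167 CPM in isotype libraries, edgeR adjusted p = 0.00176). Pcp4l1 passed the filter through its ICI libraries and Fcrlb through its isotype libraries, so the directions of both are in part set by the filter. The genes were chosen by position.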
